A study of Mus musculus with 32 samples.

Results

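The 8 genes described here, Ecel1, Baiap3, Hap1, Agt, Vgf, Slc17a6, Cacna2d2 and AW551984, were grouped as genes of preoptic and hypothalamic neurons. They were taken by symbol from the transcript-aligned tables of allele counts, where they are 8 of 18501 genes in all, and each is listed in all 3 tables. The genes were selected on their levels in these brain samples, POA against PFC and E15, so the differences in level between the tissues that follow are a description and carry no test. For 7 of the 8 every preoptic pool stood above every cortical pool, which their selection favours, and Vgf was the exception. The share of all genes with such a separation is not given here. The name also fits Agt poorly, since in the adult brain angiotensinogen is known to be made mainly by astrocytes.

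Polyadenylated RNA was sequenced in F1 mice bred from 2 inbred strains. CAST/EiJ (CAST) descends from wild castaneus mice, and C57BL/6J (B6) is the common laboratory strain. Every F1 animal carries 1 CAST and 1 B6 chromosome set. F1i animals had a CAST mother and a B6 father, and F1r animals had a B6 mother and a CAST father. From adults aged 5 weeks, the preoptic area (POA), which adjoins the anterior hypothalamus, gave 4 pools and the medial part of the prefrontal cortex (PFC) gave another 4: F1i males, F1r males, F1i females and F1r females. Whole brain at embryonic day 15 (E15) gave 1 pool per cross, with no sex labelled, and 1 pool of each parental strain was used beside them. Adult pools combined 8 to 10 animals and embryonic pools 4 to 5, so a pool is the unit of replication and differences between single animals are not seen.

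Neurons of the preoptic area and hypothalamus control body temperature, fluid balance, feeding, parental care and mating, and many of them signal with peptides. Such peptides are cut from precursor proteins inside dense-core vesicles, which are carried along microtubules and released in response to calcium. Among the 8 genes, Agt and Vgf encode secreted precursors, Ecel1 a membrane peptidase, Baiap3 a Munc13-family protein of dense-core vesicle traffic, Hap1 an adaptor for vesicle transport, Slc17a6 the vesicular glutamate transporter VGLUT2, and Cacna2d2 an auxiliary subunit of voltage-gated calcium channels. No role is given here for AW551984.

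The pools held 3585518 to 7664424 informative reads in the POA, 4956067 to 7459631 in the PFC and 11228026 to 11744265 at E15. An informative read covers a base that differs between CAST and B6 and so shows which chromosome it came from. The median CAST share over autosomal genes was 47.2 to 49.4% across the 10 pools. Levels are given in RPM, informative reads scaled to a total of 1000000 per pool, summed over the bases of a gene that all 3 tables list, and they depend on how many such bases a gene has, so levels are not compared between genes. A base is listed for a region where every pool of that region had at least 1 read there, which leaves few bases for genes that are low in the PFC.

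Some of the informative bases lie in coding sequence, and 3 whose CAST shares are given later are shown. They stand in their surroundings in the mm9 genome build, with the B6 base, and in Agt the whole codon, in capitals. The Agt base is the first base of its annotated start codon (chr8:127088452-127088481, minus strand, substitution A16G from B6 to CAST, counted from the 5′ end of the window), and the next ATG in frame lies 5 codons on. The Ecel1 base (chr1:89051071-89051100, minus strand, G16A) and the Vgf base (chr5:137507947-137507976, plus strand, A16G) do not change the amino acid.
Agt start codon: gatacacagaagcaaATGcacagatcggag
Ecel1 transcript base 518: agagcagaacgaggaGcgtctgcggcgcct
Vgf transcript base 1294: gagggaggaggaggcAgagcaggagaggcg

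The promoters of Agt and Ecel1, the 2 members with the largest fitted preoptic excess over cortex on all their shared bases, are shown because the members were grouped for their shared levels. They are the 250 bases before the annotated start in the RefSeq table of build GRCm38.p6, chr8:124569707-124569956 for Agt and chr1:87156357-87156606 for Ecel1, both on the minus strand. Capitals mark the matches to the motifs searched on both strands.
Agt promoter: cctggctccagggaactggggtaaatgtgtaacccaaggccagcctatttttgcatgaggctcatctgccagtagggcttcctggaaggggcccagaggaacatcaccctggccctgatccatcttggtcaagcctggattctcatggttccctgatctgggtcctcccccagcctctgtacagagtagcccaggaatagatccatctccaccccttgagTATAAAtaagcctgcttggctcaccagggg
Ecel1 promoter: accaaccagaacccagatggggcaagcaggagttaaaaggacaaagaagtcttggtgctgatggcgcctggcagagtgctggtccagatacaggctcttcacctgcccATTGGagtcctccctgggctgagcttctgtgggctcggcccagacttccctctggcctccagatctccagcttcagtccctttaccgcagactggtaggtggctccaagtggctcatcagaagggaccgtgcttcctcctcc

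The table holds promoters of 7 of the 8 members. The TATA box (TATAAA) was found in Agt alone among them and in 12.4% of all 32851 promoters of that length. The CAAT box (CCAAT) was found, reversed in both, in Ecel1 and AW551984 and in 33.9% of all promoters. The GC box (GGGCGG) was found in Cacna2d2 and Slc17a6 and in 32.7%, the E box (CACGTG) in AW551984 and in 6.02%, and the cyclic AMP response element (TGACGTCA) in no member and in 1.55%. No motif was shared by more than 2 of the 7 members. A member with several promoters counts where any of them matches, whereas the shares over all are per promoter. The E box and the CAAT box of AW551984 lie in different promoters.

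Agt, whose protein is the precursor of the angiotensin peptides that raise blood pressure and thirst, had the largest preoptic excess among the 12253 genes in the fit of POA minus PFC. Genes with no base listed for the PFC could not enter that fit. Its level was 784, 656, 753 and 695 RPM in the POA pools of F1i males, F1r males, F1i females and F1r females, an order kept in what follows, 13.2, 10.3, 11.5 and 23.2 in the PFC pools, and 17.3 and 19.6 in the E15 pools of F1i and F1r. The POA mean was 49.6 times the PFC mean and 39.0 times the E15 mean, and the PFC and E15 ranges overlapped. On the log2 scale the fitted difference was 5.38 ± 0.21 (SE) for POA minus PFC and 5.39 ± 0.17 for POA minus E15.

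Vgf encodes a secreted neuropeptide precursor that growth factors and activity induce in neurons, and its pattern was of another kind. It had 279, 252, 325 and 294 RPM in the POA pools, 262, 147, 218 and 302 in the PFC pools and 24.6 and 14.9 in the E15 pools. The 2 adult regions overlapped, with a fitted POA minus PFC difference of 0.13 ± 0.16, while all 8 adult pools stood above both embryonic pools, by 3.98 ± 0.20 for POA minus E15. The PFC mean was 11.7 times the E15 mean. Leaving out the PFC pool of F1r females gave 0.34 for POA minus PFC, and leaving out that of F1r males gave -0.03.

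Ecel1 encodes a peptidase of the M13 (neprilysin) family that sits in neuronal membranes and without which newborn mice do not breathe. It had 82.6, 101, 67.2 and 58.3 RPM in the POA pools, 1.88, 1.81, 2.64 and 2.56 in the PFC pools and 22.6 and 19.0 in the E15 pools. The order was POA, E15, PFC with no overlap between neighbours, and the POA mean was 34.7 times the PFC mean, a log2 difference of 4.77 ± 0.21. The tables list 14 of its bases for the POA, 2 for the PFC and 12 for E15, and the 2 PFC bases carried 52 reads over all 4 PFC pools. Taking every listed base of each region gave a log2 difference of 7.43, which also counts bases that the PFC table does not list.

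Baiap3 had 419, 459, 361 and 362 RPM in the POA pools, 52.5, 20.5, 32.5 and 35.6 in the PFC pools and 55.5 and 52.1 in the E15 pools. A gene on the opposite strand, 0610007P22Rik (chr17:25377115-25379743), overlaps the end of its 3′ UTR and takes in 3 of its 21 placed bases, and the reads are not stated to keep the strand. Those 3 bases held 20.4% of the Baiap3 reads in the POA, against 80.4% in the PFC and 71.2% at E15, and reads of the 2 genes cannot be told apart there. On the 6 shared bases outside the overlap Baiap3 had 237 ± 13 RPM in the POA (SD, n = 4), 6.78 ± 2.11 in the PFC (n = 4) and 9.20 ± 1.57 at E15 (n = 2). The POA mean was then 34.9 times the PFC mean and 25.7 times the E15 mean, against 11.3 and 7.44 times with the 3 bases kept. The fitted differences were 4.86 ± 0.17 and 5.05 ± 0.16 without those bases, and 3.25 ± 0.20 and 3.60 ± 0.15 with them.

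Hap1 encodes huntingtin-associated protein 1, which links cargo to dynein and kinesin and is known to be rich in the hypothalamus. Its level was 1575, 1623, 1497 and 1481 RPM in the POA pools, 242, 172, 245 and 197 in the PFC pools and 558 and 458 in the E15 pools. The 4 POA pools lay within a narrow range, and no tissue overlapped another. The POA mean was 7.22 times the PFC mean (log2 2.60 ± 0.11) and 3.04 times the E15 mean (1.70 ± 0.13), over 20 bases listed in every table.

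Slc17a6 loads glutamate into vesicles of subcortical neurons, and in these data its level was highest in the embryo. It had 45.7, 53.1, 30.0 and 32.3 RPM in the POA pools, 4.39, 7.65, 7.78 and 7.84 in the PFC pools and 91.3 and 131 in the E15 pools. The POA mean was 5.83 times the PFC mean and 0.362 times the E15 mean. AW551984 followed the same order, with 145, 173, 171 and 142 RPM in the POA pools, 6.69, 5.83, 7.64 and 6.14 in the PFC pools and 225 and 291 in the E15 pools. Its POA mean was 24.0 times the PFC mean and 0.613 times the E15 mean, and the E15 mean was 39.2 times the PFC mean. The fitted POA minus E15 difference of AW551984, -0.31 ± 0.17, was 0.03 without the E15 pool of F1r and -0.64 without that of F1i.

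Cacna2d2 encodes the alpha-2-delta-2 subunit, which carries calcium channels to the membrane and whose loss causes ataxia and seizures in mice. It had 63.3, 64.7, 66.3 and 69.3 RPM in the POA pools, 5.02, 2.21, 5.98 and 3.07 in the PFC pools and 16.3 and 13.4 in the E15 pools. The POA pools differed little from each other and stood clear of both other tissues, at 16.2 times the PFC mean and 4.44 times the E15 mean. The PFC values rest on 24, 11, 43 and 18 reads over 3 bases, 1 of which could not be placed in the genome.

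**Figure D1:**
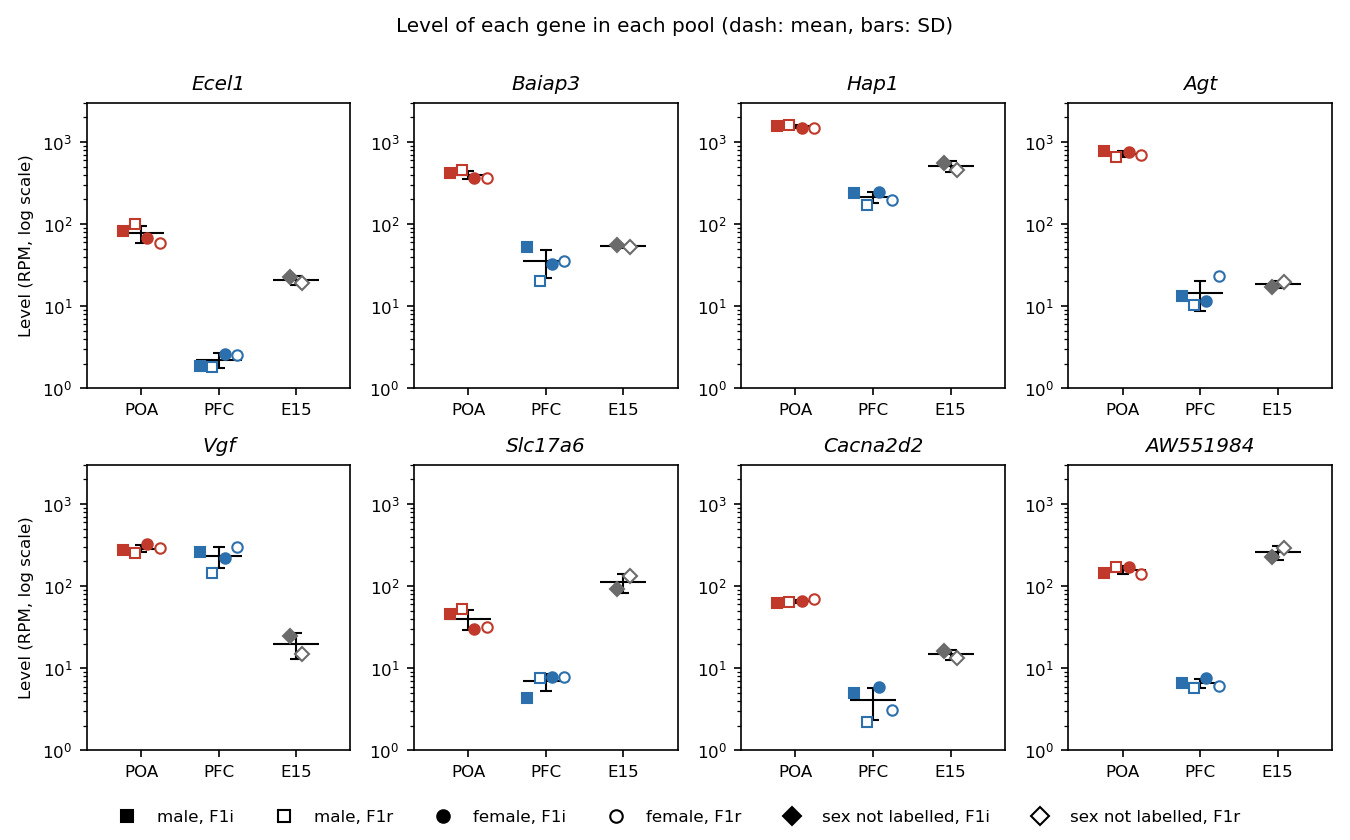
Level of each of the 8 genes in each of the 10 pools, in RPM on a log axis, with POA, PFC and E15 from left to right; dashes are means, bars are SD, filled symbols are F1i and open symbols F1r. Agt stands between 656 and 784 in the POA and between 10.3 and 23.2 in the PFC, whereas the Vgf pools of both adult regions overlap.

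The fitted POA minus PFC difference was ranked over 12253 genes, all with bases listed for both adult regions, so genes absent from cortex are left out. Agt was at 1, Ecel1 at 4, AW551984 at 5, Cacna2d2 at 8, Baiap3 at 11, Hap1 at 51, Slc17a6 at 95 and Vgf at 5185. The rank of Baiap3 uses its overlapping bases; its 4.86 without them would stand at 4. Adult regions differed widely: 54.9% of all genes passed an adjusted p of 0.05 in edgeR's quasi-likelihood test, 26.6% higher in the POA and 28.3% lower. Between POA and E15, 62.4% of 12726 genes passed, 30.7% higher in the POA and 31.8% lower. The median difference of the 8 genes was 3.43 for POA minus PFC and 2.94 for POA minus E15, against medians over all genes of -4.58e-05 and -0.03. In bulk tissue, fewer cells of a type and less RNA per cell cannot be told apart. The POA and E15 pools differ both in age and in the tissue sampled, and these cannot be told apart either.

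**Figure D2:**
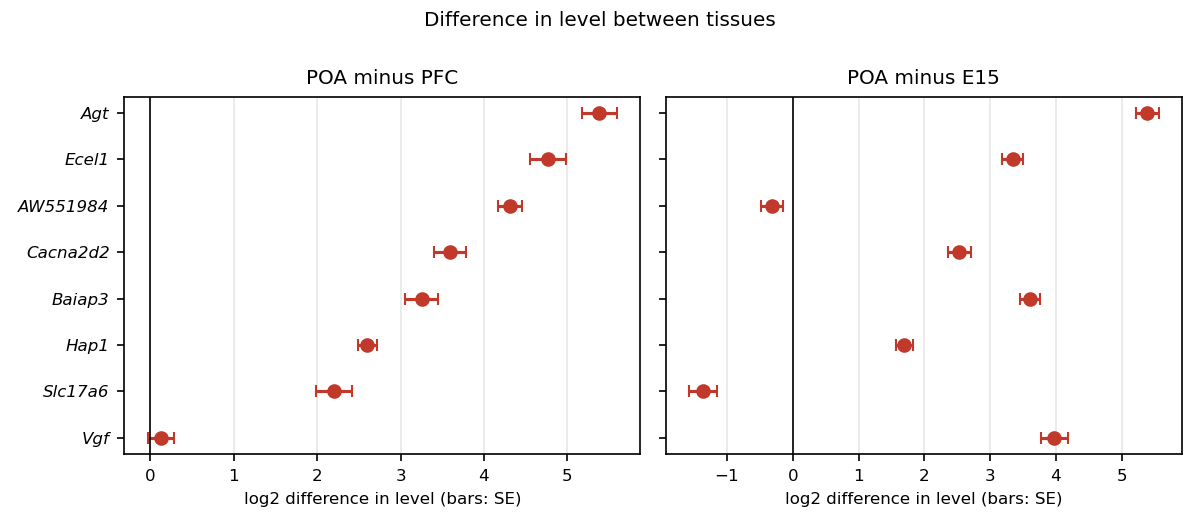
Fitted log2 difference in level for each of the 8 genes, POA minus PFC at left and POA minus E15 at right, with bars for the SE. Vgf lies at 0.13 for POA minus PFC and at 3.98 for POA minus E15. Slc17a6 and AW551984 lie below 0 for POA minus E15, at -1.36 and -0.31. The AW551984 value was 0.03 without the E15 pool of F1r.

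The level of each gene over the 10 pools was set against the mean of the others as a description, since pools of a tissue share its makeup. Pearson's r was 0.996 for Hap1, 0.989 for Cacna2d2, 0.979 for Ecel1, 0.960 for Baiap3 and 0.929 for Agt. It was 0.765 for AW551984, 0.545 for Slc17a6 and 0.025 for Vgf. Among 8204 other genes the 5 most like the mean of the 8 over these 10 pools were Agtrap (r = 0.998), 1810012P15Rik (0.995), Slc39a9 (0.995), Tmem130 (0.994) and Dusp26 (0.993). Agtrap encodes a protein that binds the angiotensin receptor; it had 59.7 RPM in the POA, 18.4 in the PFC and 30.9 at E15. Tmem130 had 2838 in the POA, 481 in the PFC and 965 at E15.

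Relatives of the members did not share their direction as a rule. Of the M13 peptidases other than Ecel1, both that could be tested were higher in the POA than in the PFC: Ece2, a peptidase of the secretory pathway, by 2.95 ± 0.14 on the log2 scale (adjusted p = 8.51e-09), and Ece1, which activates endothelin, by 0.66 ± 0.09 (adjusted p = 5.53e-05). Ece2 had 103 ± 5 RPM in the POA and 11.1 ± 2.2 in the PFC (SD, n = 4 each). Of 14 other calcium channel subunits tested, 1 was higher in the POA and 7 were lower (median log2 -0.29), and Cacnb3, Cacnb1 and Cacnb4 differed by -1.76, -1.02 and -1.10. Of 8 genes of the Munc13 family and the exocytosis core, 1 was higher and 7 were lower (median -1.14), with Stx1a at -2.89, Unc13a at -1.23 and Vamp2 at -1.12. All these are edgeR fits with an adjusted p under 0.05.

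Among vesicular transporters, Slc17a7, which encodes VGLUT1 of cortical excitatory neurons, had 1.56 ± 0.43 RPM in the POA and 635 ± 75 in the PFC (log2 -8.87 ± 0.17), and 13.4 ± 4.2 at E15 (SD, n = 2). Slc32a1, the transporter of inhibitory vesicles, had 302 ± 44 in the POA and 40.1 ± 11.8 in the PFC (2.56 ± 0.14). Slc17a8 did not pass the test, at 0.41 ± 0.30. Of 15 known partners of Hap1, 6 were higher in the POA and 4 lower (median 0.35); Kalrn, a regulator of dendritic spines, was at -3.54, Ahi1, which Hap1 stabilises, at 1.17, and Sort1 at -1.09. Against E15 the largest calls among these partners were Kif5a, a kinesin motor, at 2.46 and Ntrk2, the receptor for brain-derived neurotrophic factor, at 2.28.

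Of 16 listed genes of the renin-angiotensin system, 6 could be tested between POA and PFC, with a median log2 of -0.22. Ace was higher in the POA (0.58), Nln (-0.61) and Prep (-0.36) were lower, and 3 were not called. The rest of the system could not be set beside Agt. Secretory granule proteins, the company of Vgf, split between regions: of 16, 4 were higher in the POA and 6 lower (median log2 -0.09), led by Pcsk2, a processing protease, at -2.01, Resp18 at 2.22 and Chgb at -1.01. Against E15, 15 of 16 were higher in the POA (median 1.45), Pcsk1n by 3.91 ± 0.18 and Ptprn by 3.56 ± 0.19 among them. The 1 that was lower, Nucb2, named after its value was seen, was at -0.70 (edgeR, adjusted p = 0.0139).

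Of 29 hypothalamic neuropeptide genes, 23 are listed for the POA and 11 for the PFC. Only genes with reads in every PFC pool can enter the comparison of the regions, here and in the other lists, so genes absent from cortex are left out of these counts. Of the 11 tested, 4 were higher in the POA and 5 lower; against E15, 11 of 15 tested were higher and 3 lower. The 3 with the smallest adjusted p, Cck, Grp and Npy, were lower in the POA, at -5.36, -4.07 and -4.05, and all 3 peptides are also made by cortical neurons. Of 24 hypothalamic transcription factors, 14 of them listed for the POA, 7 were tested, with Lhx6 at 2.30, Meis2 at -3.23 and Dlx2 at 1.78 among 3 higher and 1 lower (median 0.48). Of 27 receptors for hormones and peptides, 16 were tested, with 3 higher and 4 lower, led by Npy1r at -1.68, Crhr1 at -2.24 and Tacr1 at 2.61.

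The summed levels of some cell type markers differed between the tissues, and their part in the differences of the 8 genes was not tested. Markers of cortical excitatory neurons summed to 894 to 1038 RPM in the POA, 7932 to 10895 in the PFC and 152 to 221 at E15, and 4 of 4 tested were lower in the POA than in the PFC. GABAergic markers summed to 4357 to 4754 in the POA, 1147 to 1205 in the PFC and 1026 to 1234 at E15, with 6 of 8 higher in the POA than in the PFC. Astrocyte markers, the known source of Agt in brain, summed to 4805 to 6035 in the POA, 4636 to 5292 in the PFC, which overlap, and 1467 to 1521 at E15, with 6 of 10 higher and 2 lower in the POA than in the PFC. Oligodendrocyte markers summed to 8607 to 9148 in the POA, 1453 to 4554 in the PFC and 249 to 345 at E15, and 7 of 7 were higher in the POA than in the PFC. The PFC pool of F1r females held the highest sum of oligodendrocyte markers among the PFC pools and also the highest Agt and Vgf there. Microglial markers summed to 360 to 399 in the POA, 443 to 495 in the PFC and 165 to 173 at E15, with 0 of 6 higher and 4 lower in the POA than in the PFC, and endothelial markers to 110 to 140, 119 to 194 and 209 to 283 in the same order of tissues, with 1 of 6 higher and 1 lower. None of the ependymal markers had bases listed in all 3 tables. Markers of progenitors and immature neurons summed to 42.5 to 60.5 in the POA, 36.8 to 42.7 in the PFC and 1310 to 1549 at E15.

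Which allele the transcripts came from is a measure that the choice of genes did not use. In the POA the B6 allele gave more reads than the CAST allele for Agt, Baiap3, Ecel1 and Vgf, by modest amounts, and 0 of the 8 had a called excess of CAST. The CAST share of Baiap3 was 44.3, 45.5, 43.4 and 43.4% in the POA pools of F1i males, F1r males, F1i females and F1r females, that of Vgf 45.0, 43.6, 43.9 and 45.6%, that of Agt 46.3, 47.1, 45.6 and 46.1%, and that of Ecel1 47.6, 47.7, 47.2 and 47.3%. All 16 values lay below 50% and below the median over autosomal genes in the POA pools, which was 49.0 to 49.4%. The log2 ratio of CAST to B6 was -0.34 ± 0.03 for Baiap3 (adjusted p = 0.0108), -0.32 ± 0.04 for Vgf (0.0173), -0.21 ± 0.03 for Agt (0.0162) and -0.15 ± 0.03 for Ecel1 (0.0418), by edgeR's quasi-likelihood test on 11872 genes.

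In that comparison 13.1% of all genes were called and 7.93% had less CAST. The 4 of 8 was above the share over all genes, a difference that was not itself tested. The shares are not like for like, since the genes were not matched for depth and members were selected on their levels. The 4 called had 7361 to 16830 POA reads and the other members 1308 to 32316. The share over all genes also depends on the genes tested. With autosomes alone 3282 of 11500 were called, 1948 with less CAST, against 1550 of 11872. In the fit of all genes the 8 members' ratios were all below 0, with a median of -0.15 against -0.04 for all genes. Leaving out 1 POA pool at a time gave 0 to 2 calls among the members (0 without F1i males or F1i females, 2 without F1r males, 1 without F1r females), while the count over all genes dropped to 0, 0, 469 and 216 in that order, against 1550 with 4 pools. The ratios themselves stayed at -0.37 to -0.31 for Baiap3, -0.35 to -0.29 for Vgf, -0.23 to -0.20 for Agt and -0.15 to -0.14 for Ecel1. Scaling each allele by its own total left 2, Baiap3 and Vgf. Counting the deepest base of each gene alone gave 0 calls, with -0.02 for Ecel1, -0.14 for Baiap3, -0.10 for Agt and -0.30 for Vgf. Hap1, at 50.3, 49.7, 49.7 and 48.9% CAST in the POA pools, stood close to even, and AW551984, Cacna2d2 and Slc17a6 were not called.

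**Figure D3:**
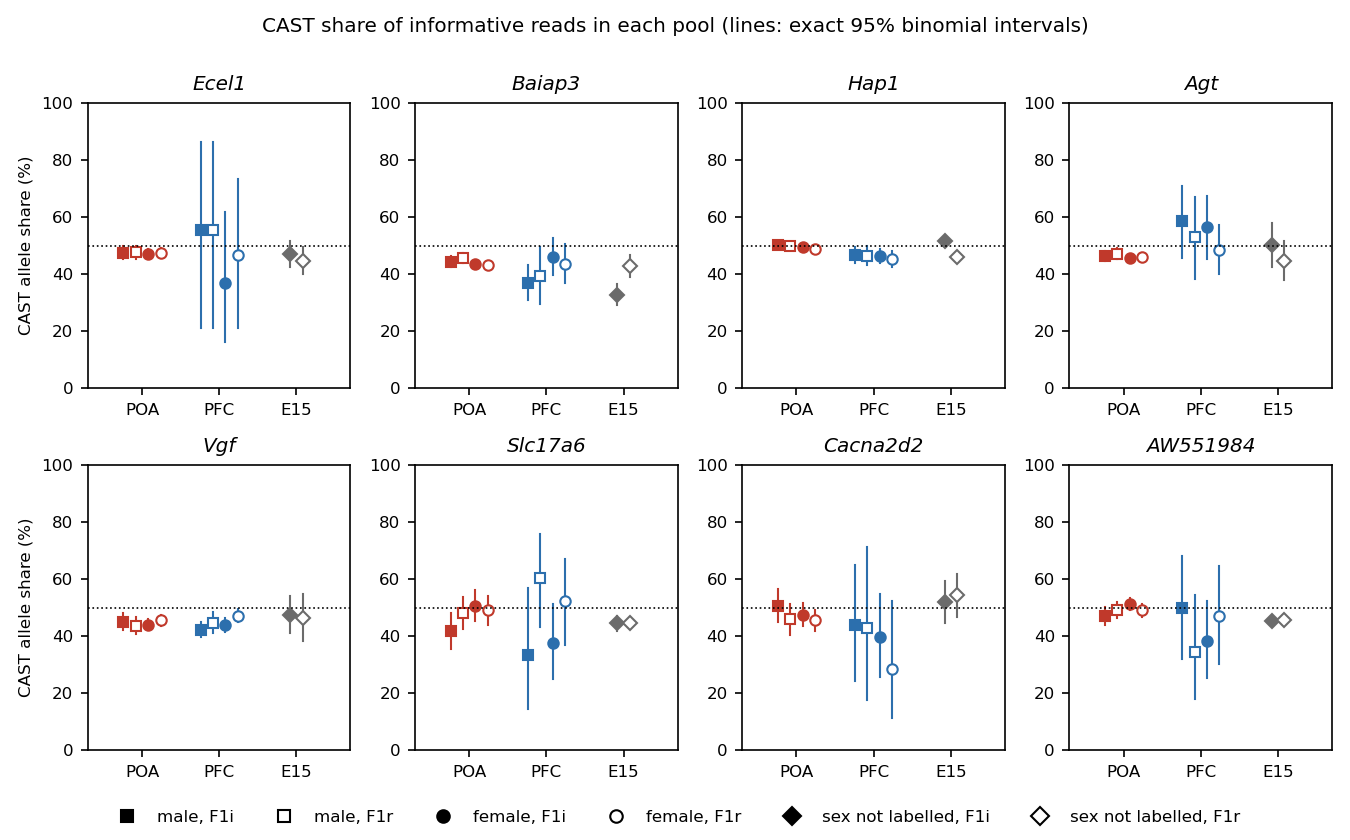
CAST share of the informative reads of each gene in each pool (%), with exact binomial intervals at 95% that cover counting error only, POA, PFC and E15 from left to right and the dotted line at 50%. The POA pools of Baiap3, Vgf, Agt and Ecel1 lie below the line in all 16 cases, and the intervals are wide for Ecel1, Slc17a6 and Cacna2d2 in the PFC.

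In the PFC, 22.3% of 11366 genes were called, 15.4% with less CAST, and 3 of the 7 members with enough reads, all with less CAST. Vgf had CAST shares of 42.3, 44.7, 43.9 and 47.1% in the PFC pools (log2 -0.32 ± 0.05, adjusted p = 0.0167), and Hap1 46.6, 46.4, 46.3 and 45.3% (-0.22 ± 0.05, adjusted p = 0.0345). Baiap3 had 37.1, 39.2, 46.2 and 43.5% (-0.49 ± 0.13, adjusted p = 0.0471), but without the bases inside 0610007P22Rik it was -0.41 ± 0.37 (adjusted p = 0.470). Leaving out any single PFC pool gave 0 calls among the members, with 2, 1287, 2 and 1072 genes called in all without F1i males, F1r males, F1i females and F1r females, against 2530. Over these 4 fits Vgf stayed at -0.35 to -0.28, Hap1 at -0.24 to -0.21 and Baiap3 at -0.63 to -0.36. Ecel1 was too low to test in the PFC, with 9 to 19 informative reads per pool.

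Over all 8 adult pools, where 35.9% of 11154 genes were called and 23.7% had less CAST, 4 of 8 members had less CAST than B6. Vgf was at -0.27 ± 0.04 (adjusted p = 0.000658), Baiap3 at -0.42 ± 0.06 (0.000801), Cacna2d2 at -0.56 ± 0.09 (0.00158) and Hap1 at -0.12 ± 0.02 (0.00159) in the edgeR fit. The 4 calls held when any 1 pool was left out. Hap1 passed in 14 of the 16 alternatives run, over which its ratio lay between -0.13 and -0.05. Cacna2d2 without its base that could not be placed was at -0.46 ± 0.17 and no longer passed (adjusted p = 0.0748). Baiap3 without its overlapping bases was at -0.39 ± 0.15 and no longer passed (adjusted p = 0.0839), while its bias in the POA still did, at -0.33 ± 0.03 (adjusted p = 0.0109). The Cacna2d2 value rests on bases listed for both adult regions; the POA table adds a synonymous base, at transcript base 2885, where the CAST share was 58.6% of 524 reads (exact 95% interval 54.2 to 62.8%).

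Hap1 was the only member called for a strain bias that differed between the regions, in a comparison that called 5.02% of genes. Its POA minus PFC difference in the log2 ratio of CAST to B6 was 0.20 ± 0.04 (edgeR, adjusted p = 0.0252). Its CAST shares were 48.9 to 50.3% in the POA and 45.3 to 46.6% in the PFC, without overlap. DESeq2 did not call it, nor did the deepest base, the scaling by allele or the fit without any 1 of the 4 POA pools or without either female PFC pool. Over the alternatives run the difference itself stayed between 0.13 and 0.22, and with a pool left out the count over all genes was 181 to 334, against 560. The median difference over all genes was 0.06, and -0.01 with each allele scaled by its own total. Agt and AW551984 had an unadjusted p under 0.05 as well, at -0.46 ± 0.11 and 0.55 ± 0.19 (edgeR, adjusted p = 0.108 and 0.141). In the PFC pools Agt had 58.7, 52.9, 56.6 and 48.5% CAST on 51 to 136 reads, and was not called (0.23 ± 0.16). Over all adult pools Agt was at 0.002 ± 0.045. Between POA and E15 the test of the same kind called 0 members and 3.92% of genes; Ecel1 had the only unadjusted p under 0.05, at 0.62 ± 0.17 (adjusted p = 0.0766), and among the alternatives it passed only when autosomal genes alone were tested. That Ecel1 value rests on the 2 bases listed in all 3 tables; over all listed bases of each table it was 0.09 and on the deepest base 0.22. DESeq2 also called 0 members there.

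**Figure D4:**
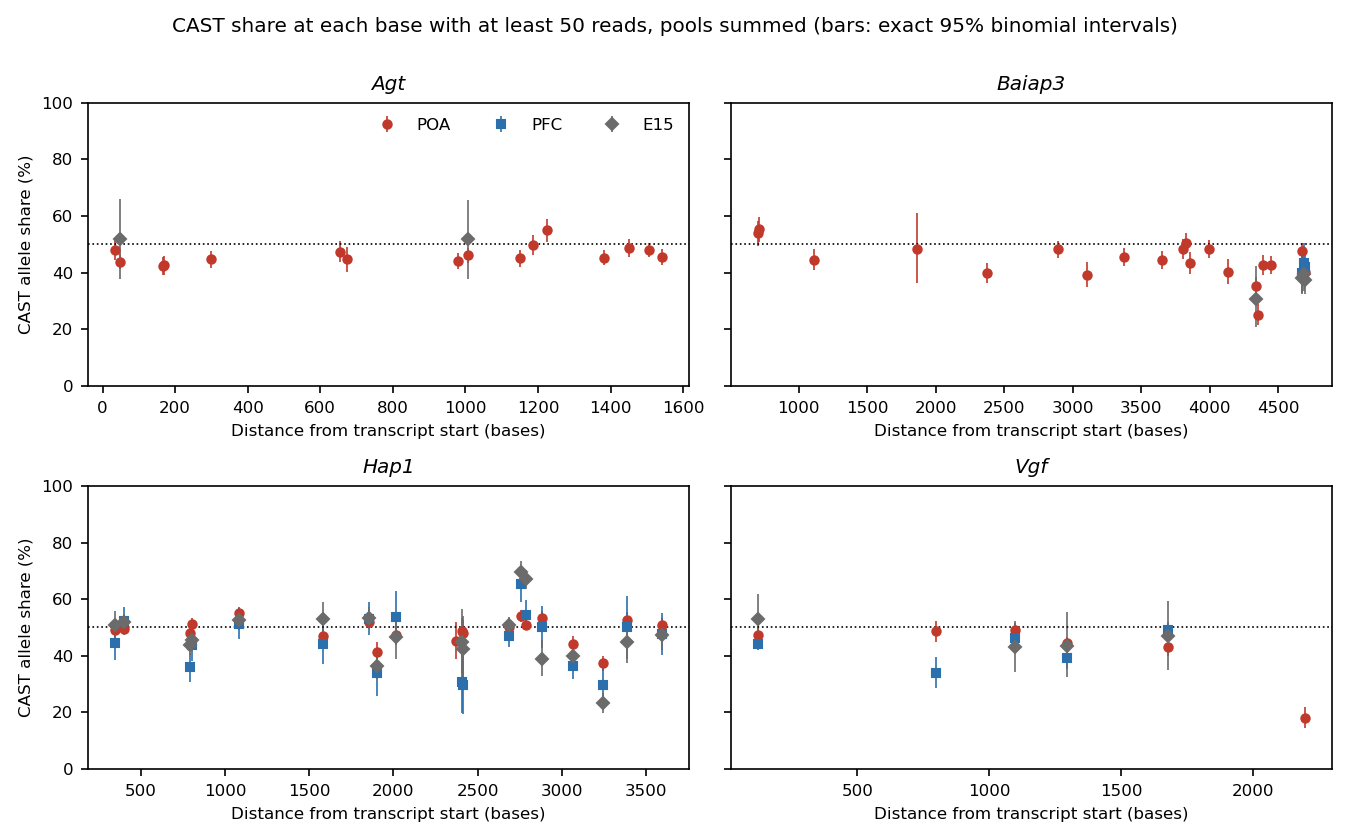
CAST share (%) at each base with at least 50 reads against its distance from the transcript start, for Agt, Baiap3, Hap1 and Vgf, with reads of all pools of a tissue summed and exact binomial intervals at 95%. In the POA the Agt bases have a median of 45.4% and range from 42.4 to 54.9%, while Hap1 runs from 23.3 to 69.4% in its 3′ UTR at E15.

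Base by base, the bias was even along some transcripts and patchy along others. Of the 16 Agt bases in the POA, 15 lay below 50% CAST and 10 had an exact interval wholly below it, with a range of 42.4 to 54.9%. The Agt start codon base had 43.9% of 1416 reads from CAST, and the Ecel1 base 518, the lowest of its 14 POA bases, had 41.5% of 644. At E15 the same Ecel1 base had 77.8% of 27 reads from CAST. For Ecel1 11 of 14 POA bases lay below 50%, and for Baiap3 18 of 21. For Vgf all 6 did, the base at 1294 with 44.5% of 2006 reads; its lowest, at transcript base 2196, had 18.0% of 434 reads, could not be placed in the genome and is listed for the POA alone. That base is part of the POA shares and of the -0.32 given for Vgf; without it the POA pools were at 46.7, 44.9, 45.8 and 47.3% and the ratio at -0.22 ± 0.04 (edgeR, adjusted p = 0.0380).

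Hap1's sum near 50% in the POA joined bases on either side, from 37.4 to 55.0%. At transcript base 3244 the CAST share was 37.4% in the POA, 29.7% in the PFC and 23.3% at E15, and at base 2757 it was 54.0% in the POA, 65.4% in the PFC and 69.4% at E15. Both bases lie in the 3′ UTR (chr11 positions 100209049 and 100209536), and both lay further from even in the PFC and at E15 than in the POA. In Slc17a6 the 3 bases 509, 511 and 526 of the 5′ UTR had 28.4, 27.8 and 30.2% CAST in the POA and 36.2, 35.6 and 41.7% at E15. They lie within the 36 bases of a single read, so they share reads and are not separate measurements.

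The tables of genome-aligned reads gave much the same exonic CAST share as the transcript-aligned ones for some members and another share for others. It was 46.97% for Ecel1, 45.1% for Agt and 48.8% for Hap1 in the POA, but 39.2% for Baiap3 in the POA and 26.9% in the PFC. Vgf was at 46.6% in the POA, above the 44.6% of the transcript-aligned table, and Cacna2d2 at 33.3% at E15 (28.1 to 38.8%), against 53.0%. Bases in introns, where reads were few, had more CAST for Hap1, at 58.3% of 422 reads in the POA (exact 95% interval 53.4 to 63.0%). So had those of Cacna2d2 there, at 66.2% of 151 reads (58.1 to 73.7%). The intronic CAST share in the POA was 62.9% of 70 reads for Ecel1 and 100% of 41 for Slc17a6. It was 78.6% of 14 for Agt and 66.7% of 12 for AW551984. Baiap3 lay on the other side of even, at 45.2% of 248 reads (38.9 to 51.6%). At E15 the intronic share of Hap1 was 46.1% of 482 reads (41.5 to 50.6%), beside 46.6% in its exons, and that of Cacna2d2 was 56.8% of 287 reads (50.8 to 62.6%). These intervals cover counting error only.

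No member was called for a parental bias in adults, that is, for more reads from the maternal or from the paternal chromosome whatever its strain. In the POA 0 of 8 members and 0.413% of genes were called, and no member had an unadjusted p under 0.05. In the PFC 0 of 7 tested members and 0.282% of genes were called, and over all adult pools 0 of 8 and 0.430%. In each, 1 member, Slc17a6, had an unadjusted p under 0.05. Its log2 ratio of CAST to B6 in F1i minus that in F1r was -1.18 ± 0.42 in the PFC (edgeR, adjusted p = 0.963), on 21 to 56 reads per pool. That difference adds up the maternal to paternal log2 ratios of the F1i and F1r crosses. DESeq2 called 0 members in all 3 comparisons.

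At E15, with 1 pool per cross, Fisher's exact test between the crosses called Baiap3 and Hap1, as it did 13.6% of 14652 genes, and its p-values cover counting error only. Baiap3 had a maternal share of 32.8% in F1i and 57.1% in F1r, which lie on opposite sides of 50%. Its log2 ratio of CAST to B6 in F1i minus that in F1r was -0.62 ± 0.17 (Fisher's exact test, adjusted p = 0.00300). Without the overlapping bases this difference was -0.90 ± 0.32 (Fisher's exact test, adjusted p = 0.0385). Hap1 had maternal shares of 51.7% in F1i and 54.1% in F1r, and the same difference was 0.34 ± 0.06 (Fisher's exact test, adjusted p = 8.00e-08). Each such difference adds up the maternal to paternal log2 ratios of the F1i and F1r crosses. Over the alternatives run the difference between the crosses stayed between 0.34 and 0.38 for Hap1 and between -0.90 and -0.62 for Baiap3. With the spread seen between adult pools in place of counting error, neither was called, and neither was on its deepest base alone; those fits called 189 and 1185 genes in all, against 1998.

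No member differed in level between the sexes or the crosses by edgeR. The test called 0 of 8 members for sex and 0.0326% of genes, and 0 of 8 for cross and 0.00816%, and no member had an unadjusted p under 0.05 in either. For a region difference that depends on sex it called 0 of 8 members and 0% of genes, with an unadjusted p under 0.05 for 2 members, Slc17a6 at 1.04 ± 0.35 and Ecel1 at 1.02 ± 0.42 (adjusted p = 0.999 each). DESeq2 called 0 members in all 3. The Ecel1 level in the POA averaged 91.6 RPM in the 2 male pools and 62.7 in the 2 female pools, with no overlap. Slc17a6 averaged 49.4 in the male and 31.2 in the female pools, also with no overlap. In the PFC both were lower in males, again without overlap, on 9 to 56 reads per pool. There Ecel1 averaged 1.85 in males and 2.60 in females, and Slc17a6 6.02 and 7.81. The test for sex takes both regions together. The POA pools of the sexes were apart as well for Baiap3 and Hap1, higher in males, and for Vgf and Cacna2d2, higher in females. Those of Agt and AW551984 overlapped, and the share over all genes is not given here. With 2 pools per sex and region these are values that the fit did not tell from the spread between pools.

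At E15 the parental strains themselves were sequenced, 1 pool each, which sets the difference between strains beside that between the alleles in 1 animal. Vgf had a log2 ratio of the CAST strain to the B6 strain of -1.38 (95% interval by counting -1.86 to -1.03), against -0.14 and -0.20 for the alleles in the F1i and F1r pools. Hap1 was at -0.48 (-0.57 to -0.39) between strains, against 0.10 and -0.24 between alleles. Agt was at 0.63 (0.20 to 1.13) between strains and 0.02 and -0.30 between alleles. AW551984, at -0.24 between strains and -0.28 and -0.25 between alleles, was nearly the same in both. The strains had no replicate pools, and the SD of this ratio over 11988 genes was 0.55, and no error over pools can be given.

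**Figure D5:**
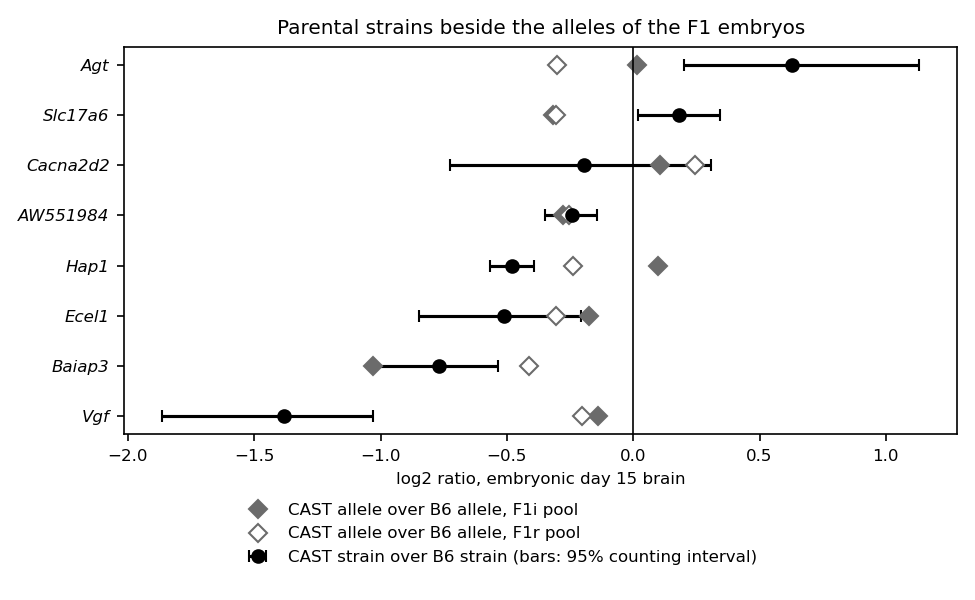
Log2 ratio of CAST to B6 at E15 for each gene, with the ratio between the pools of the 2 parental strains as circles (bars: 95% interval by counting) and that between the alleles of the F1i and F1r pools as filled and open diamonds. Vgf lies at -1.38 between strains and at -0.14 and -0.20 between alleles, while the values of AW551984 lie together.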

How the data were processed

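The submitters' processing notes name Novoalign and the mm9 build; the aligner's version is not given in the sources used here. The deposited values are counts of reads with the CAST and the B6 base at each informative base, in columns that sum technical replicates of a pool, with reads of 36 cycles. For each gene, reads were summed over the informative bases of its most covered transcript. Repeated listings of a base (1056 in the POA, 911 in the PFC and 2073 in the E15 table) and mitochondrial rows were dropped. Comparisons between tables used bases listed in each. Levels in RPM are informative reads scaled to 1000000 per pool. edgeR 4.0.16 in R 4.3.3 (quasi-likelihood, TMM, filterByExpr, cross, sex and region as terms) compared levels. Allele counts were fitted with a term per pool, for genes averaging 20 or more informative reads a pool. Calls used a Benjamini-Hochberg adjusted p under 0.05 over all genes tested, two-sided. Crosses were compared at E15 by Fisher's exact test (two-sided). Shares have exact Clopper-Pearson intervals at 95%. DESeq2 1.42.0 was an alternative. The fits were tested on simulated data.

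All 8 members are named; of each list the 3 genes with the smallest adjusted p between POA and PFC and the 2 with the smallest between POA and E15 may be named, with the 5 genes most like the members (averaging 100 or more reads a pool, pseudocount 1 RPM). The members and lists were chosen with earlier results of these data known. Leaving out bases in an overlapping gene, and bases that could not be placed, was chosen after seeing the data. Ratios between the parental strains used a pseudocount of 1 RPM. The adult parental libraries were not used here. Bases were placed on transcripts and genes of the mm9 annotation.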

Additional observations from a re-analysis of the deposited data

Results flagged for a closer look

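The level of Slc17a6 in the PFC pool of F1i males was 4.39 RPM, far from the other 3 PFC pools, which lay between 7.65 and 7.84. It was the lone such value among 32 groups of 4 pools checked, by a criterion that chance meets in about 1 in 20 groups.

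Hap1 was called by edgeR for a strain bias that differed between the adult regions. Its POA minus PFC difference in the log2 ratio of CAST to B6 was 0.20 ± 0.04, and the cause was not tested. The call held in 7 of the 16 alternatives run.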

How the results depend on the processing

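The number of members with a strain bias in the POA was 4, and it was 2 with a library size per allele, 0 on the deepest base and 0 to 2 with a pool left out. In the PFC it was 3, and it was 1 with a library size per allele, 0 on the deepest base and 0 with each pool left out in turn. The count of members called for a strain bias that differed between POA and PFC (1) became 0 on the deepest base, with a library size per allele and with DESeq2, and 0 to 1 with a pool left out. Between POA and E15 the count of 0 became 1 with autosomes alone. The E15 parental count of 2 became 0 on the deepest base and 0 with edgeR and the adult dispersion. The cause of each was not tested. Over all genes, the count called between POA and PFC was 5661 to 6809 with a pool left out and 6046 to 7864 otherwise, and between POA and E15 it was 7053 to 8240 and 7457 to 9431.

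Of 183 such counts and medians under an alternative, 159 stayed within 1.5 times. Of the alternatives for single members, 56 lost a call, 1 gained one, 37 values without a test moved by more than the spread and 1338 did neither. Of the counts of called genes in the lists, 63 moved by over 1.5 times under an alternative and 873 did not. No called value changed sign; 104 values without a call did.

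No paired analysis was possible because the deposited columns sum technical replicates and carry no replicate numbers. Depth limits the PFC values of Ecel1, Slc17a6, Cacna2d2 and AW551984, with 9 to 56 informative reads per pool, where shares are known only roughly. Bases under a read length of 36 apart can count a read more than once, which makes counting intervals too narrow.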
